A study of Rattus norvegicus with 16 samples.

Results

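The 46 passenger-strand star miRNAs described here were chosen by name. A mature miRNA whose name on the array ends in an asterisk is the arm of a hairpin that was first found at the lower level, and the arm without the asterisk is its main arm. Of the 350 rat miRNAs on the array, 58 carried an asterisk, and 12 of these were set aside by the rule (the star arms of miR-9, miR-126, miR-129, miR-136, miR-204, miR-34c and miR-338, and those of the imprinted Dlk1-Dio3 cluster). The 46 members pair with 43 main arms, because some main arms are made by more than 1 hairpin. No measured value was used to choose them.

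Total RNA from the whole hippocampus of male Sprague-Dawley rats was end-labelled with Cy-3 and hybridised to 16 single-colour arrays, 1 array per rat. The groups were naive rats (n = 3), rats given a sham injury (n = 2), rats given a severe fluid percussion brain injury (TBI, n = 3), and injured rats given a compound named in the labels as PMI (n = 3), JM6 (n = 3) or E33 (n = 2), all taken 24 hours after the procedure, or without any procedure for the naive rats. The doses and their timing were not given in the sources used here, and any further sham or TBI+E33 samples were not analysed here. The whole hippocampus mixes neurons, glia, vessels and blood, so that fewer cells of a type and less RNA per cell cannot be told apart.

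Each miRNA hairpin is cut to a short duplex of its 5p and 3p arms. One strand is kept by an Argonaute protein and guides it to messenger RNAs through the seed, bases 2 to 8, while the passenger strand is mostly degraded. The choice favours the strand whose 5′ end is less tightly paired and starts with U or A. Both arms come from the same precursor, so a shift of one against the other is a measure that the rate of transcription alone does not set, unless a main arm also has a further hairpin. Some star arms are loaded and have targets of their own. Main arms of the members include brain regulators such as miR-124, which is specific to neurons, and miR-21, which is raised by injury in many tissues.

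The sequences of the star arms that were seen on every array are given first, since the results below rest on them, with the seed in capitals (RefSeq mature sequences, assembly GRCr8, 5′ to 3′). Of the 46 members, 40 had an entry, as did 38 of the 43 main arms. miR-30e* belongs to the same set and is named only.
miR-29c*: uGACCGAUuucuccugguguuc
miR-140*: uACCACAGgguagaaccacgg
miR-7a*: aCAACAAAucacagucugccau
miR-330*: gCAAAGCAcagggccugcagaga
miR-30a*: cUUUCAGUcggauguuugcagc
miR-181a*: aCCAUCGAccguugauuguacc
miR-99a*: cAAGCUCGuuucuaugggucug
miR-22*: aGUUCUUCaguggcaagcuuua

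The main arms of the hairpins whose arm pattern stood apart are shown for contrast, with miR-7b as the nearest relative of miR-7a.
miR-7a: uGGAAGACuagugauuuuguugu
miR-7b: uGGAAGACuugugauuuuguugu
miR-140: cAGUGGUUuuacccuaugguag
miR-330: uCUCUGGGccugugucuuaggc
None of these 3 star arms shared a seed with its main arm. miR-7a and miR-7b have the same seed and differ by 1 base of 23.

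3 pairs of members shared a seed, and each pair differed by 3 edits over 22 bases. They are shown because a probe for one of such a pair may also bind the other.
miR-99b*: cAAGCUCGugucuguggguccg
miR-30c-1*: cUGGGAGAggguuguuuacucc
miR-30c-2*: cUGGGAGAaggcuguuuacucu
miR-24-1*: gUGCCUACugagcugauaucag
miR-24-2*: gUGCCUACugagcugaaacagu
miR-99b* has the seed of miR-99a*, listed above. The pairs did not behave alike in detection. miR-99a* was seen on all 16 arrays and miR-99b* on 8, miR-30c-2* on 13 and miR-30c-1* on 6, and miR-24-2* on 11 and miR-24-1* on none.

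Of the 40 members with a sequence, 25 were 3p arms and 15 were 5p arms. C was the most frequent 5′ base of the stars, in 19 of 40 (47.5%), U stood there in 7 (17.5%), and A in 10. Among the 38 main arms with a sequence the order was different, with U in 23 (60.5%), A in 10 and C in 4 (10.5%). Among the 8 stars that were seen on every array and had a sequence, U stood first in 2, A in 3, C in 2 and G in 1. These are properties of the list, given without a test. 29 of the 40 hairpins lay inside the coordinates of an annotated gene, 18 of them a protein-coding gene (GRCr8, strand not compared). The hairpin of miR-7a* lay within Hnrnpk, which encodes an RNA-binding protein, that of miR-140* within Wwp2, a ubiquitin ligase gene, and that of miR-330* within Eml2, which encodes a microtubule-associated protein. The probe targets of these 3 stars, in the array's own rat build rn4, were at chr17:12204145-12204162, chr19:37422771-37422784 and chr1:78544387-78544399, all on the plus strand.

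Most star arms were at or under the background of the array. A miRNA was counted as detected on an array when most of the replicate spots of its brightest probe were well above background by the scanner software's own test. By that measure 9 of the 46 stars (19.6%) were detected on all 16 arrays, 12 (26.1%) on some and 25 (54.3%) on none. The 9 were miR-29c*, miR-140*, miR-30e*, miR-7a*, miR-330*, miR-30a*, miR-181a*, miR-99a* and miR-22*. Among the 292 miRNAs without an asterisk the shares were 148 on all arrays (50.7%), 69 on some (23.6%) and 75 on none (25.7%). Among the 43 main arms, 35 (81.4%) were detected on all arrays. A miRNA that was not detected was not well above background here, which does not show that it was absent.

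**Figure D1:**
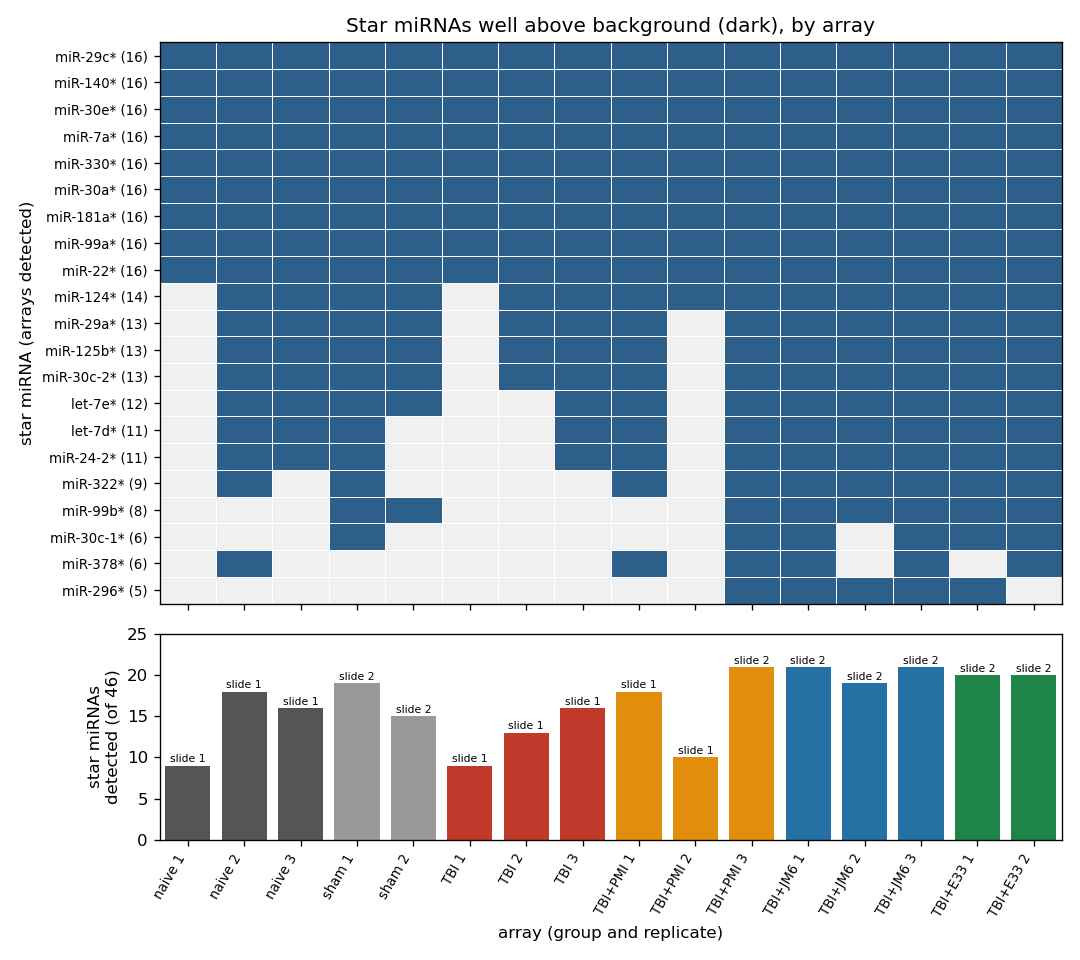
Upper panel, detection (dark, well above background by the brightest probe) of the 21 stars seen on at least 1 array, in rows with the number of arrays in brackets, on each of the 16 arrays in columns. Lower panel, the number of the 46 stars detected on each array with its slide, which ran from 9 to 18 on slide 1 and from 15 to 21 on slide 2.

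The 12 stars detected on some arrays ran from miR-124* (14 arrays), miR-29a*, miR-125b* and miR-30c-2* (13 each) through let-7e* (12), let-7d* and miR-24-2* (11 each), miR-322* (9) and miR-99b* (8) to miR-30c-1* and miR-378* (6 each) and miR-296* (5). Of the 25 whose representing probe was never detected, 7 had another probe above background on 1 to 3 arrays, all of the same slide. These were miR-135a*, miR-138*, miR-20a*, miR-21*, miR-29b-2*, miR-30d* and miR-872*. In all of these but miR-30d*, the probes were tied at the floor. The probe that stood for the star was then the first by name and not the brightest, so their place among the 25 depends on that choice. The remaining 18 members (39.1%) had no probe above background on any array, against 70 of the 292 other miRNAs (24.0%). The 18 depend on the rule for detection, and were 5 where any 1 spot above background was enough.

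Detection, by the probe used for each miRNA, differed between families. In the miR-30 family, 2 of 5 stars were detected on all arrays and 2 on some. Among the families of miR-99, miR-100 and miR-125, 1 of 3 was detected on all and the other 2 on some. In the let-7 family none of 4 was on all arrays and 2 were on some, and in the miR-29 family 1 of 4 was on all and 1 on some. In the miR-23/27/24 clusters 1 of 4 was on some and 3 on none, and in the miR-17-92 cluster and its paralogs, known as promoters of cell division, all 4 stars were on none while 3 of their main arms were on all arrays. Of the 4 stars of brain-enriched hairpins only miR-124* was detected by the probe used, on 14 arrays, although all 4 main arms were on every array. Another probe was detected on 3 arrays for miR-138* and on 1 for miR-135a*. The single stars of miR-181 and miR-7 were on all arrays.

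The number of stars detected followed the slide. The arrays lay on 2 slides of 8, with the naive and TBI arrays and TBI+PMI replicates 1 and 2 on slide 1, and all others on slide 2. Slide 1 arrays had 9 to 18 stars detected (median 14.5) and slide 2 arrays 15 to 21 (median 20). The other miRNAs moved with them, with 152 to 195 detected on slide 1 and at least 172 on slide 2. The median local background was 87 to 123.5 intensity units on slide 1 and 64 to 68.5 on slide 2. In the TBI+PMI group, which spanned both, replicates 1 and 2 had 18 and 10 stars detected and replicate 3, on slide 2, had 21.

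4 members were above background on every array of 1 group and on none of another. The share of the other miRNAs with such a pattern was not computed, so the count is not a trait of the stars. miR-99b*, whose main arm belongs to the family of miR-99 and miR-100, was detected on 0 of 3 naive, 2 of 2 sham, 0 of 3 TBI, 1 of 3 TBI+PMI, 3 of 3 TBI+JM6 and 2 of 2 TBI+E33 arrays. miR-30c-1* was detected on 0, 1, 0, 1, 2 and 2 arrays of those groups in the same order, miR-322* on 1, 1, 0, 2, 3 and 2, and miR-296* on 0, 0, 0, 1, 3 and 1. The groups with few detections were those of slide 1, except that miR-296* was also missed on both sham arrays. Their signals lay close to the detection limit, at -6.73 to -5.78 on the log2 scale for miR-99b* and -6.73 to -6.63 for miR-296*, and no fold bound above 1 could be given for either. The part of the slide in these counts was not tested. Within slide 2, miR-296* was detected on 3 of 3 TBI+JM6 and 0 of 2 sham arrays.

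The level of a miRNA is given below as log2 of its signal over the 75th percentile of the signals detected on all 16 arrays of that same array, so that 0 equals that percentile, and values at -6.73 were held at a floor. Signals of different probes depend on how well each binds, so the difference between a star and its main arm is a difference of signals and not a ratio of molecules. Its change between groups is free of that and is what was tested. The 9 stars detected throughout had signals of 134.8 to 1161 intensity units before scaling, and no spot of any array was saturated (0).

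**Figure D2:**
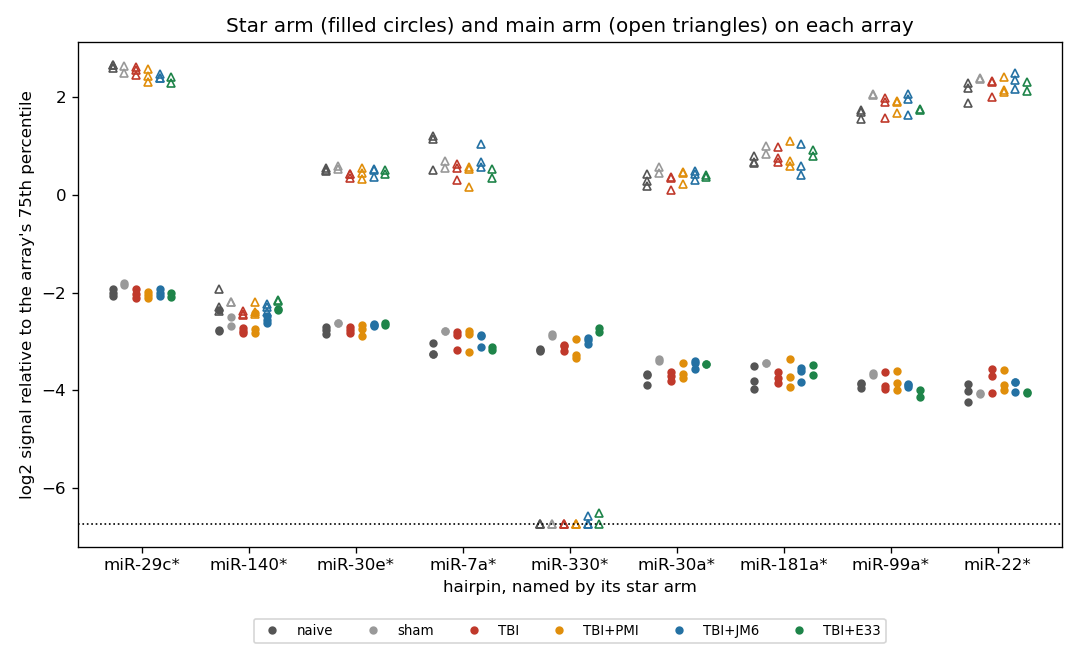
Log2 signal relative to the array's 75th percentile (y axis) of the star arm (filled circles) and main arm (open triangles) of the 9 hairpins whose star was detected throughout (x axis), 1 point per array, coloured by group, with the floor of -6.73 dotted. miR-140* lies close under miR-140, miR-330* lies above miR-330, which is at or near the floor, and the other 7 stars lie well under their main arms.

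miR-29c* had the highest star signal, with a median of -2.02 over the 16 arrays (lowest -2.12, highest -1.80). It was followed by miR-140* at -2.65 (-2.83 to -2.34), miR-30e* at -2.70 (-2.90 to -2.62), miR-7a* at -2.97 (-3.26 to -2.78) and miR-330* at -3.06 (-3.34 to -2.73). The dimmest were miR-30a* at -3.60 (-3.88 to -3.36), miR-181a* at -3.65 (-3.98 to -3.36), miR-99a* at -3.88 (-4.13 to -3.61) and miR-22* at -4.00 (-4.25 to -3.57). All 16 values of miR-29c* were above those of the other 8. From miR-140* down, each star's range overlapped that of its neighbour in this order, except that the lowest value of miR-330*, -3.34, lay just above the highest of miR-30a*, -3.36.

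In 7 of the 9 hairpins the main arm was much brighter. The median star minus main difference was -6.18 for miR-22, -5.69 for miR-99a, -4.48 for miR-29c, -4.47 for miR-181a, -3.92 for miR-30a, -3.47 for miR-7a and -3.17 for miR-30e. miR-140* stood only 0.32 under miR-140 (median -0.32, range -0.49 to -0.18). The SD of this difference over the 16 arrays was 0.10, with lower values for miR-30e (0.08) and miR-30a (0.09). Its group means ran from -0.44 in naive to -0.18 in TBI+E33 rats. The miR-140 hairpin is best known from cartilage, and its 3p arm, named the star here, is also known as an abundant arm. In the miR-330 hairpin the star was detected on all 16 arrays and the main arm on 6, with the median of miR-330 at the floor. As the probes differ and one is near the background, no difference between these arms is given.

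A bright main arm did not come with a detected star as a rule. In 19 of the 46 pairs the main arm was detected on all arrays and the star on none. The brightest of these main arms was miR-29b, a regulator of collagens and other matrix genes, at a median of 4.34. Its stars miR-29b-1* and miR-29b-2* were not above background by the probes used for them, which were tied at the floor. Next came let-7b at 2.65, let-7i at 1.80, miR-21 at 1.73 and miR-218 at 1.67. miR-29c, with a detected star, had a median of 2.49. In 4 pairs, those of miR-196a, miR-296, miR-363 and miR-708, the main arm was detected on no array.

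The question behind the naive and TBI groups was what the injury changed after 24 hours. None of the 9 star miRNAs that could be tested passed the test by level, and the other 37 were not tested. Of the 170 miRNAs tested, 0 (0%) passed an adjusted p of 0.05 by limma with Benjamini-Hochberg adjustment, and so 0 of the 9 stars tested, with 38 of all and 0 of the 9 stars under an unadjusted p of 0.05. The stars had a median difference of 0.03 on the log2 scale, against -0.05 over all miRNAs tested. miR-22*, from a hairpin whose main arm is expressed in many tissues, was at -4.25, -4.01 and -3.87 in the naive rats and at -3.57, -4.06 and -3.72 in the TBI rats, a difference of 0.26 (SE 0.16, adjusted p = 0.399). miR-140* was at -2.77, -2.37 and -2.78 in the naive rats and at -2.78, -2.73 and -2.83 in the TBI rats, a difference of -0.14 (adjusted p = 0.571). Both sets of values overlapped. The difference of miR-29c* was -0.02 (SE 0.09). Of the 9 stars, 0 had groups that did not overlap, against 28.2% of all miRNAs tested.

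Among the 8 member pairs that could be tested, miR-7a* was the 1 star whose balance with its main arm was called different between the groups. miR-7a is enriched in neurons and endocrine cells. miR-7a* was at -3.26, -3.25 and -3.04 in the naive rats and at -2.86, -3.17 and -2.80 in the TBI rats, while miR-7a was at 0.50, 1.15 and 1.204 in the naive rats and at 0.54, 0.31 and 0.62 in the TBI rats. The star minus main difference was -3.76, -4.40 and -4.24 in the naive rats and -3.41, -3.48 and -3.42 in the TBI rats. All 3 TBI values were above all 3 naive values, and the naive values were more spread (mean -4.14 ± 0.33, SD, n = 3) than the TBI values (mean -3.44 ± 0.04, SD, n = 3).

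The star minus main difference of miR-7a* was 0.70 higher in TBI than in naive rats (SE 0.15, 95% interval 0.34 to 1.05, 1.62-fold, limma adjusted p = 0.0238). It was the 1 call among the 11 arm pairs of the array that could be tested (9.09%), 8 of them members. An exact permutation test over the 3 and 3 rats gave p = 0.1 (two-sided), the smallest this design allows. Neither arm passed on its own. miR-7a* was 0.24 higher (adjusted p = 0.322) and miR-7a 0.46 lower (difference -0.46, SE 0.20, adjusted p = 0.215). The difference of miR-7b, which has no star arm on the array, was -0.45 (adjusted p = 0.235). The call was lost on leaving out TBI replicate 1 (0.68, adjusted p = 0.115), TBI replicate 2 (0.72, adjusted p = 0.0529), TBI replicate 3 (0.69, adjusted p = 0.0674) or naive replicate 3 (0.65, adjusted p = 0.132), and it held on leaving out naive replicate 1 (0.89) or 2 (0.57).

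**Figure D3:**
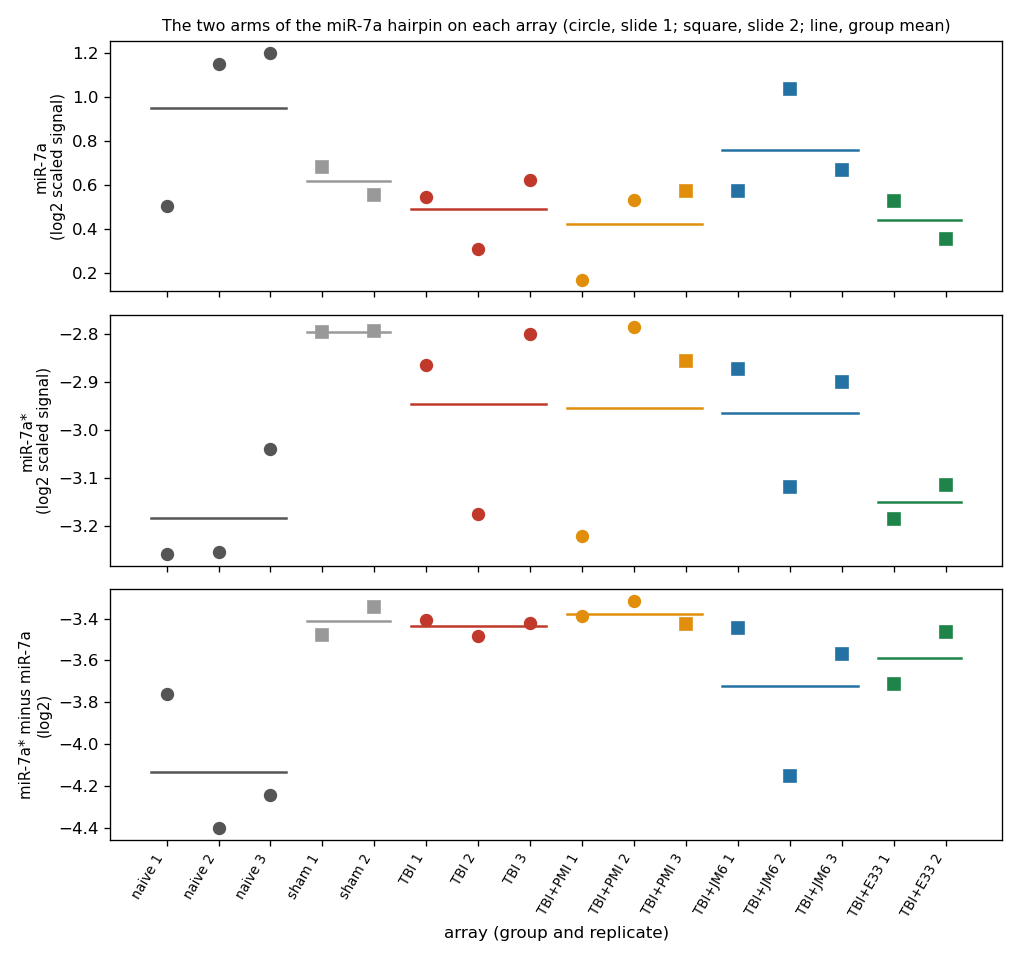
Log2 levels of miR-7a and miR-7a* and their difference (y axes) on each array (x axis), with circles for slide 1, squares for slide 2 and lines for group means. The 3 naive differences lie between -4.40 and -3.76, under all TBI, TBI+PMI and sham values, and TBI+JM6 replicate 2 lies among them at -4.15.

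The array carried 4 probes for miR-7a*, of which those detected on 15 and 16 arrays were set against both probes of miR-7a. In these 4 pairs all TBI values were above every naive value, with differences of 0.70 to 0.88. A star probe detected on 8 arrays was not paired, and its level differed by 0.12. The precursors limit what the pair can show. In RefSeq miR-7a comes from 2 hairpins and miR-7a* from 1 of them, and the probe of miR-7a may also bind miR-7b, so the signal of miR-7a is a sum to which the hairpin of the star adds only in part. Markers of other cell types were set beside this result. The summed level of the 4 neuronal miRNAs (miR-124, miR-128, miR-138 and miR-9, all detected on all arrays) was 4.95 to 5.16 in the naive rats and 4.91 to 4.96 in the TBI rats. That of the 3 vessel miRNAs was 0.92 to 2.11 and 0.88 to 0.98, and that of the 4 choroid plexus miRNAs, of which 1 was detected on all arrays and 1 on none, was -0.82 to 1.05 and -0.89 to -0.53, with naive replicate 2 highest in both. The part of these cells in the miR-7a result was not tested. The shift was 0.57 without naive replicate 2 (adjusted p = 0.0186).

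The other star minus main differences were smaller between TBI and naive. That of miR-22* was 0.16 higher (SE 0.06, adjusted p = 0.226), at -6.13, -6.19 and -6.15 in the naive rats and -5.91, -6.07 and -6.03 in the TBI rats. That of miR-140* was 0.08 higher (SE 0.05, adjusted p = 0.451), at -0.47, -0.44 and -0.41 and then -0.33, -0.36 and -0.39. Neither passed the test, although in both, as in miR-7a*, the groups did not overlap. This was so in 3 of the 8 member pairs, against 27.3% of all pairs tested.

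**Figure D4:**
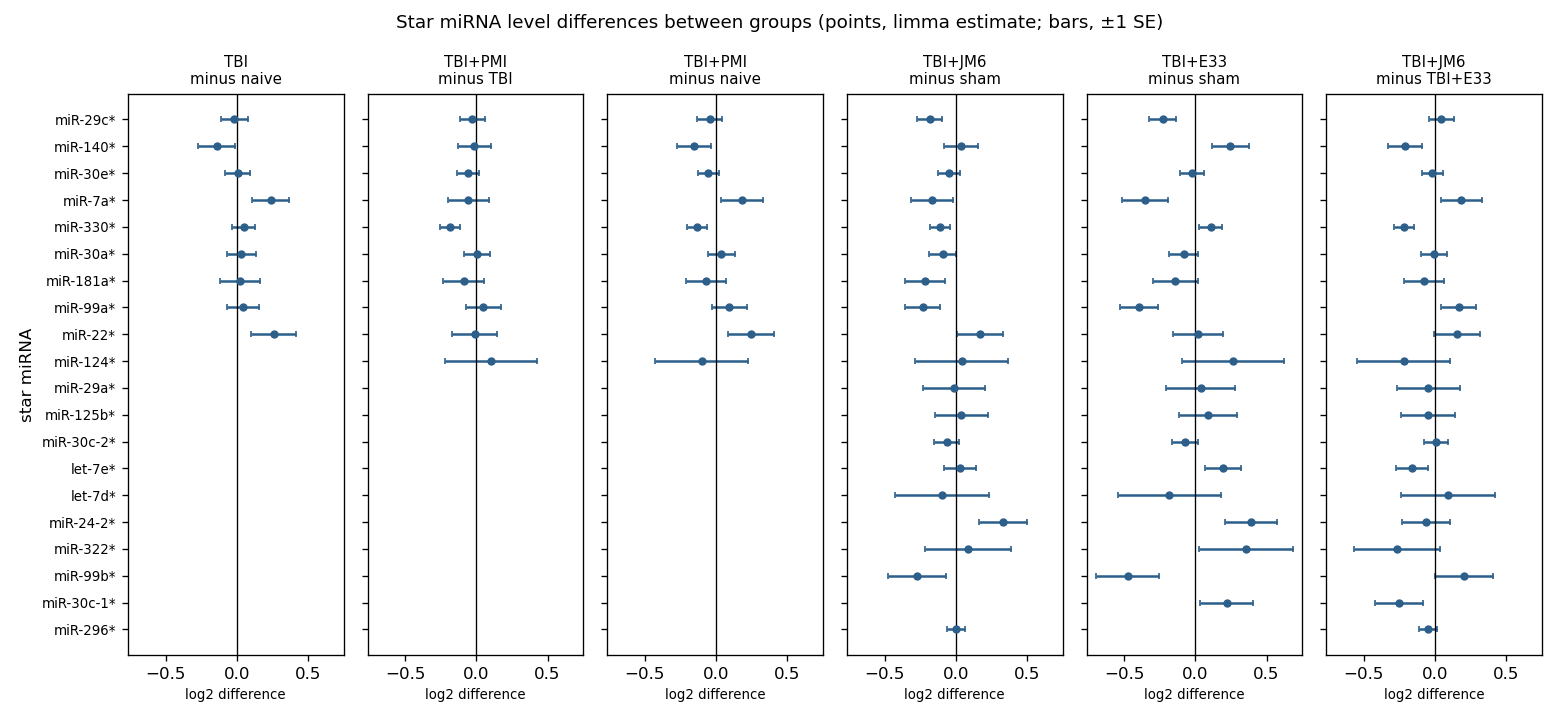
Log2 difference in level between groups (x axis) of each star tested (y axis) in the 6 comparisons, as limma estimates with bars of 1 SE on each side. None of these differences passed an adjusted p of 0.05, and the points lie between -0.48 and 0.39.

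Rats given PMI after the injury were compared with injured rats and with naive rats. Between TBI+PMI and TBI, 0 of 176 miRNAs (0%) and 0 of the 10 stars tested were called, with 21 of all and 1 of the stars under an unadjusted p of 0.05. The groups did not overlap in 0 of the 10 stars, against 3.98% of all miRNAs tested. That star was miR-330*, at -3.08, -3.19 and -3.09 in the TBI rats and -3.34, -3.27 and -2.94 in the TBI+PMI rats. Its difference with the slide in the fit was -0.18 (SE 0.07, unadjusted p = 0.0259, adjusted p = 0.410), and the groups overlapped through replicate 3, the 1 TBI+PMI array on slide 2. miR-330* was -3.34 to -3.08 on slide 1 and -3.05 to -2.73 on slide 2. The ranges were -3.88 to -3.62 and -3.57 to -3.36 for miR-30a*, and -2.90 to -2.70 and -2.69 to -2.62 for miR-30e*. In the other stars detected throughout, the ranges of the slides overlapped. The share of all miRNAs that separate by slide was not computed, and the slides also differ in their groups. Between TBI+PMI and TBI, the difference was 0.10 for miR-124* (adjusted p = 0.965). It was 0.05 for miR-99a* and -0.09 for miR-181a* (adjusted p = 0.948 for both). miR-124* was detected on 2 of 3 TBI and 3 of 3 TBI+PMI arrays, so the filter favoured the direction of its difference. The star minus main difference of miR-7a* was 0.09 (SE 0.20, 95% interval -0.34 to 0.51, adjusted p = 0.748), and none of the 11 pairs tested was called (0%).

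Between TBI+PMI and naive rats, 35 of 178 miRNAs tested were called (19.7%), 6 higher (3.37%) and 29 lower (16.3%), and none of the 10 stars tested was among them, nor had any an unadjusted p under 0.05. Of the 36 main arms tested, 2 rose, miR-21 by 1.40 (adjusted p = 0.0141) and miR-20a, of the miR-17-92 cluster, by 0.60 (adjusted p = 0.0394). The probes that stood for miR-21* and miR-20a* were tied at the floor with the other probes of each star, and were above background on no array. Another probe was detected on 1 array for each, a TBI+JM6 array for miR-21* and a TBI+PMI array for miR-20a*. Neither star was therefore tested. The differences of the stars ran from -0.15 for miR-140* (adjusted p = 0.415) and -0.14 for miR-330* (adjusted p = 0.214) to 0.18 for miR-7a* (adjusted p = 0.422) and 0.24 for miR-22* (adjusted p = 0.328).

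The balance of miR-7a was again the 1 call of 11 pairs (9.09%). The star minus main difference was -3.39, -3.31 and -3.43 in the TBI+PMI rats, all above the naive values. The groups did not overlap in 2 of the 11 pairs tested (18.2%), this pair included. The difference of miR-7a* was 0.79 higher than in naive rats (SE 0.20, 95% interval 0.36 to 1.21, 1.72-fold, limma adjusted p = 0.0162). The naive rats are the same as above, so this comparison is not independent of the last. Within slide 1 alone the difference was also 0.79 (SE 0.15, adjusted p = 0.00484). An exact permutation test over all 3 and 3 rats, without the slide, gave a difference of 0.76 and p = 0.1, the smallest possible. miR-7a was 0.60 lower (difference -0.60, adjusted p = 0.0590) and miR-7a* 0.18 higher. The summed level of the 4 neuronal miRNAs was 4.55 to 4.93 in the TBI+PMI rats and 4.95 to 5.16 in the naive rats. These did not overlap, as in 24.7% of all miRNAs tested. The sums of oligodendrocyte (2.87 to 3.00 and 2.69 to 2.99), white cell (-0.84 to 0.09 and -0.76 to -0.45) and red cell miRNAs (-2.11 to -0.97 and -3.25 to -1.13) overlapped. That of the choroid plexus list reached 2.56 in TBI+PMI replicate 1, which was also lowest in the neuronal sum. The part of these cells in the miR-7a result was not tested here either. The call was lost with the normexp background correction (0.78, adjusted p = 0.370) and on leaving out naive replicate 2 (0.65, adjusted p = 0.0681) or 3 (0.73, adjusted p = 0.0818) or TBI+PMI replicate 1 (0.82, adjusted p = 0.0504) or 2 (0.75, adjusted p = 0.166). Without TBI+PMI replicate 1, miR-22* was called in its place (0.41, adjusted p = 0.00875).

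The sham rats, which were not injured, had miR-7a* at -2.80 and -2.79, miR-7a at 0.68 and 0.55, and differences of -3.48 and -3.35. These lay with the TBI values and above all naive values. Sham and naive rats did not overlap in 6 of the 12 arm pairs tested (50%), so this separation was not particular to miR-7a*. With slide in the fit, sham was 0.80 above naive (SE 0.32, 95% interval 0.10 to 1.496, unadjusted p = 0.0275, adjusted p = 0.330 over 12 pairs), a comparison added after the values were seen. By level, 0 of 195 miRNAs (0%) were called between sham and naive, and 8 of the 15 stars tested did not overlap, against 53.3% of all. Sham and naive rats were on different slides, linked only by the TBI+PMI group, and sham and TBI rats were likewise on different slides.

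The JM6 and E33 rats shared a slide with the sham rats and were compared with them. For TBI+JM6 minus sham, 0 of 225 miRNAs (0%) and 0 of the 19 stars tested were called (23 of all and 0 stars under an unadjusted p of 0.05), and 0 of 21 pairs (0%). The differences ran from -0.27 for miR-99b* (adjusted p = 0.748) and -0.23 for miR-99a* (adjusted p = 0.531) to 0.17 for miR-22* and 0.33 for miR-24-2* (adjusted p = 0.531). miR-24-2* was detected on 1 of 2 sham and 3 of 3 TBI+JM6 arrays and so entered the test only through the group where it was higher, which favours that direction. The groups did not overlap in 10 of the 19 stars, miR-24-2* included, against 31.1% of all miRNAs tested. miR-99b* rests on its sham pair, which differed widely, at -6.73 (the floor) and -5.78. Without sham replicate 1 it was called lower (-0.75, adjusted p = 0.0200), and without sham replicate 2 its difference was 0.20.

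For TBI+E33 minus sham, 3 of 226 miRNAs were called (1.33%), 2 higher (0.885%) and 1 lower (0.442%), and none was among the 19 stars tested, of which 3 had an unadjusted p under 0.05 (28 of all). miR-99a*, from a hairpin that lies beside that of let-7c, was at -3.64 and -3.69 in the sham rats and -4.00 and -4.13 in the TBI+E33 rats, a difference of -0.40 (SE 0.14, 95% interval -0.69 to -0.10, unadjusted p = 0.0126, adjusted p = 0.217). It was called on the arrays of slide 2 alone (-0.40, adjusted p = 0.0455) and after quantile normalization (-0.56, adjusted p = 0.0483). miR-99b* had a difference of -0.48 (adjusted p = 0.398), which was called without sham replicate 1 (-0.95, adjusted p = 0.00427) and was 0 without sham replicate 2. miR-24-2* was at -5.98 and -6.23 in the sham rats and -5.83 and -5.60 in the TBI+E33 rats, a difference of 0.39 (adjusted p = 0.401), and that of miR-322* was 0.35 (adjusted p = 0.671). Both were detected on 1 of 2 sham and 2 of 2 TBI+E33 arrays, so that the filter favoured the direction of these differences and their place among the stars without overlap. Groups did not overlap in 14 of the 19 stars, against 61.1% of all miRNAs.

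No pair of arms was called for E33 (0 of 21, 0%). The star minus main difference of miR-140* was -0.49 and -0.30 in the sham rats and -0.18 in both TBI+E33 rats, 0.22 higher (SE 0.08, unadjusted p = 0.0189, adjusted p = 0.396). That of miR-7a* was -3.45, -4.15 and -3.57 in the TBI+JM6 rats and -3.71 and -3.47 in the TBI+E33 rats. The difference from sham was -0.31 for JM6 (95% interval -0.75 to 0.13, adjusted p = 0.931) and -0.18 for E33 (95% interval -0.66 to 0.31, adjusted p = 0.891). Leaving out single arrays moved it between -0.45 and -0.09 for JM6 and between -0.30 and -0.05 for E33, and neither passed in any of these. TBI+JM6 replicate 2 had the highest miR-7a of the injured rats, 1.04.

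The compounds JM6 and E33 were compared directly on slide 2. Of 230 miRNAs, 0 (0%) were called, as were 0 of the 20 stars (4 of all and 1 star under an unadjusted p of 0.05) and 0 of 27 pairs (0%). The star was miR-330*, at -2.98, -3.05 and -2.92 with JM6 and -2.73 and -2.81 with E33, a difference of -0.22 (95% interval -0.37 to -0.06) with an adjusted p of 1. The differences of the 20 stars ran from -0.26 for miR-322* and miR-30c-1* to 0.19 for miR-7a* and 0.20 for miR-99b*. Their median was -0.05. The groups did not overlap in 6 of the 20 stars, miR-30c-1* included, against 12.2% of all miRNAs tested. miR-30c-1* was detected on 2 of 3 TBI+JM6 and 2 of 2 TBI+E33 arrays, so the filter favoured the direction of its difference. The widest intervals were those of miR-124* (-0.94 to 0.50) and let-7d* (-0.64 to 0.81), within which no difference was detectable. The narrowest, that of miR-296* (-0.18 to 0.09), comes from values held at the floor and gives no precision.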

How the data were processed

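RNA of 16 hippocampi was measured on single-colour Agilent rat miRNA arrays. The authors extracted the spot intensities with Agilent Feature Extraction and deposited them without normalization between arrays. The processed signal has the background subtracted, and flags mark spots that are well above background or outliers. A second deposited table of the authors, of intensity scaled by 1 constant per array, held 741 of the 938 probes and 0 of the star miRNAs, so it was not used for them. How the authors drew calls from either was not used here.

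The processed intensity was averaged over replicate spots without outlier flags and scaled to the 75th percentile that each array had over 284 probes seen throughout (1945 to 4042 units). It was held at a floor of -6.73 after log2, and the brightest probe represented its miRNA. Where all probes of a miRNA were tied at the floor, the first by probe name represented it. A miRNA was tested if all arrays of either group detected it, and an arm pair if both arms were detected on every array of both groups. This filter leaves out most members, and those that passed are not all members. Tests used limma 3.58.1 (lmFit and eBayes, R 4.3.3), with Benjamini-Hochberg adjustment over all miRNAs or all pairs tested and a threshold of 0.05. TBI minus naive used the 6 arrays of those groups, and slide was a term in the remaining comparisons, which were fitted to the 16 arrays together. Tables and plots used Python 3.11.15, pandas 2.3.3 and matplotlib 3.10.9. The scripts were tested on simulated data.

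The text names the stars detected on all arrays, those called, the 2 largest tested differences in each direction of a comparison, those detected on all arrays of 1 group and none of another, and their main arms. Members and lists were chosen with earlier results of these data known. The alternatives tried were other background corrections, scalings, filters, probe summaries and fits, the replicate number as a block, and leaving out each array. Nothing says how the rats were assigned, and the number of arrays limits the precision. In a check of the labels, same-numbered arrays did not deviate together in most comparisons (correlations of -0.44 to 0.38), so the numbers were not taken as pairs. Within groups, arrays were not duplicates of each other. The summed markers of neurons (4 of 4 detected on all arrays) and oligodendrocytes (2 of 2) were high and liver miR-122 was at the floor, while the choroid plexus list (1 of 4 on all arrays) ranged from -0.89 to 2.56 and was highest in TBI+PMI replicate 1, sham replicate 1 and naive replicate 2.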

Additional observations from a re-analysis of the deposited data

Results flagged for a closer look

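The star minus main difference of miR-7a* differed between the comparisons with naive and with sham rats. It was 0.70 higher in TBI than in naive rats, while the differences from sham were -0.31 in TBI+JM6 rats and -0.18 in TBI+E33 rats, neither of which passed the test (-0.45 to -0.09 and -0.30 to -0.05 on leaving out single arrays). The difference between the first effect and the mean of the other 2 was 0.94 (SE 0.25, limma adjusted p = 0.0268 over the 11 pairs tested), a test added after the values were seen. The 2 effects differ in control, compound and slide, and these cannot be told apart. As levels, the same test gave 0.50 for miR-7a* (adjusted p = 0.223) and 0.36 for miR-99a* (adjusted p = 0.267).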

How the results depend on the processing

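Of 797 values recomputed under an alternative, 318 were summary counts that stayed equal or nearly so. A further 417 were values of single stars that kept their direction and their side of the threshold. Of the other values of single stars, 33 did not keep their sign, 9 lost a call and 4 gained one. The summary counts, of called stars, called arm pairs and detected stars, moved in 16 cases. Arm pairs called ranged from 0 to 1 on leaving out arrays for TBI minus naive, TBI+PMI minus naive, TBI+JM6 minus sham and TBI+E33 minus sham, and were 0 for TBI+PMI minus naive under normexp. Stars called ranged from 0 to 1 on leaving out arrays for TBI+JM6 minus sham and TBI+E33 minus sham. In both sham comparisons the call was miR-99b* without sham replicate 1 (arm differences -0.72, adjusted p = 0.0133, and -0.79, adjusted p = 0.00975). For TBI+E33 minus sham, 1 star was called after quantile normalization and 1 on a single slide. The methods' t-test, at an unadjusted p under 0.05 and over 1.2-fold, named 3 (miR-322*, miR-7a* and miR-99a*). That is a looser threshold than the adjusted p of the other calls. With any 1 spot above background counted as detection, 5 stars were seen on no array instead of 18. That count was 18 to 21 on leaving out arrays.

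No star whose difference changed sign had been called. For TBI minus naive, miR-29c* was 0.055 with the percentile over all probes, 0.13 with summed probes and -0.067 to 0.029 on leaving out arrays, and miR-140* 0.0033 with summed probes. For TBI+PMI minus TBI, normexp gave miR-124* -0.16 and miR-99a* -0.036, no scaling gave miR-330* 0.20 and miR-181a* 0.29, miR-181a* was 0.066 without the slide term, and leaving out arrays gave miR-124* -0.21 to 0.28, miR-99a* -0.14 to 0.24 and miR-181a* -0.19 to 0.0075. For TBI+PMI minus naive, miR-140* and miR-330* were 0.0073 and 0.026 with the percentile over all probes and 0.13 and 0.14 with no scaling, and miR-7a* was -0.037 to 0.40 on leaving out arrays. For TBI+JM6 minus sham, normexp gave miR-99b* 0.71 and miR-99a* 0.25, no scaling gave miR-22* -0.049, and miR-99b* was -0.75 to 0.20 on leaving out arrays. For TBI+E33 minus sham, normexp gave miR-99b* 0.0081, no scaling gave miR-24-2* -0.11 and miR-322* -0.15, and miR-99b* was -0.95 to 0 on leaving out arrays. For TBI+JM6 minus TBI+E33, miR-322* was 0.55 with normexp and 0.014 with no scaling, miR-30c-1* was 0.63 with normexp, and the arm difference of miR-7a* was 0.068 with normexp and -0.27 to 0.082 on leaving out arrays. The cause was not tested.

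With the replicate number as a block, the arm difference of miR-7a* was 0.70 for TBI minus naive (adjusted p = 1.31e-05) and 0.80 for TBI+PMI minus naive (adjusted p = 0.0373), and the block changed no other call. Crossed numbers for TBI+E33 minus sham, tried because same-numbered arrays correlated at -0.16, gave 0 calls. Stars near the background are limited by signal, and the table scaled by the authors could not be fitted for the stars.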
